A study of Mus musculus with 4 samples.

Results

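The genes described here are the Wnt ligands, their receptors, the inhibitors of the pathway and its nuclear effectors and feedback genes, in C2C12 cells that differentiated with or without GDF8. Members were all non-control probes of a mouse whole-genome array whose name in the files was a Wnt, Fzd (frizzled), Sfrp, Dkk or Nkd gene, or Lrp5, Lrp6, Axin1, Axin2, Lef1, Tcf7, Tcf7l1, Tcf7l2, Ctnnb1, Wif1, Frzb, Ror1, Ror2, Lgr5 or Porcn. This gave 78 probes of 53 genes, of 41174 probes in all. Of these genes 38 were measured, that is, well above background in all 4 arrays of one treatment, and they stood among 17444 features tested. Tcf7l1 had no probe under that name, and probes filed under its older name, Tcf3, are not counted as members. The brightest of them, saturated in 1 GDF8 channel, gave 0.23 ± 0.11 on the log2 scale (limma, adjusted p = 0.50).

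C2C12 is a single mouse myoblast line whose cells fuse into myotubes when serum is lowered. The cells were grown in medium with 10% fetal bovine serum and differentiated for 6 days, either untreated or with 20 nM GDF8 every 24 h, with no vehicle named. GDF8, or myostatin, is a TGF-beta family protein that limits muscle growth, and was used here as recombinant mouse protein. For the differentiation medium of both groups the growth protocol states 2% horse serum and the source names state 10%. Each of 4 two-colour arrays held RNA from 1 GDF8 culture and 1 untreated culture. The labels number them as biological replicates 1 to 4 but do not say how the cultures were kept apart, so p-values measure the spread between these samples, which may be technical. GDF8 RNA was in Cy5 in replicates 2 and 3 and in Cy3 in replicates 1 and 4.

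All 4 arrays lay on 1 slide, and the share of non-control spots well above background ran from 63.3% to 78.8% over the 8 channels. The 8 differentiated muscle markers, among them Myog and Acta1, were well above background in all channels, and 7 of them did not pass. No ratio is given for Myog, Myh3, Acta1, Des, Tnnt1 and Tnnc1, each saturated in all 4 untreated channels, and Myod1, saturated in 2 GDF8 and 2 untreated channels, gave -0.01. Ckm, muscle creatine kinase, was not saturated and was lower after GDF8 (-0.93 ± 0.18, limma, adjusted p = 0.049). Its call was lost with replicate 1, 2 or 4 left out (adjusted p from 0.10 to 0.13; -0.65 without replicate 2) and without the pairing by array (0.20). It was also lost with no background correction (adjusted p = 0.058), the deposited table (0.073), no filter on dim probes (0.064) or a filter on all 8 channels (0.054). The part of this marker in the Wnt values was not tested. Of 18 markers of fat, vessel, blood, bone, nerve and epithelial cells, 8 were measured, 0 passed the test in limma, and their values lay between -0.47 and 0.15. Fabp4 (-0.06), Kdr (0.15), Cd68 (-0.02), Cd3e (-0.03), Bglap (-0.47, adjusted p = 0.069) and Sox10 (0.14) were well above background in all 8 channels, and Sp7 (-0.01) and Krt8 (0.12) in 7. Cfd, Pecam1, Ptprc and Ibsp, of the same fat, vessel, blood and bone lists, were so in 0 of 8. The other markers that were not measured were so in some channels, such as Rbfox3 (3 GDF8 and 3 untreated) and Adipoq (1 GDF8 and 3 untreated).

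Wnt proteins are secreted ligands that the acyltransferase Porcn must modify with lipid before they can leave the cell. Bound to frizzled receptors and the co-receptors Lrp5 and Lrp6, they halt the Axin-based complex that destroys beta-catenin (Ctnnb1), which then joins Tcf and Lef factors on target genes. Several target genes encode brakes on the pathway, such as Axin2 and Nkd1, while Dkk, Sfrp and Wif1 proteins act outside the cell. In muscle, Wnt signals are known for roles in the induction of myogenesis in the embryo and in the differentiation of satellite cells.

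After 6 days with GDF8, 1 Wnt gene rose and 2 fell. Nkd1, an intracellular brake on the pathway, was 1.69-fold higher, Wif1, a secreted protein that binds Wnt ligands, was 1.62-fold lower, and Porcn was 1.37-fold lower. The call of Nkd1 rests on 1 of its 2 probes and that of Porcn on arrays of one dye orientation, as described with each gene. The genes called made up 2.63% (higher) and 5.26% (lower) of the 38 measured, where 0.860% and 2.30% of all features passed in those directions and 3.16% in either. The remaining 35 measured members did not pass limma's test at an adjusted p of 0.05. Ratios are given as log2 of GDF8 over untreated, with limma's standard error over 4 arrays after ±, and adjusted p-values are limma's over 17444 features. An exact sign-flip test over 4 arrays cannot go below p = 0.125, so none is given for single genes.

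The median ratio of the 38 genes was -0.01, with 18 above 0, and that of all features was 0.01, with 52.2% above 0. By role the median was 0.45 for the 4 intracellular inhibitors, 0.19 for the 4 nuclear effectors, 0.02 for 14 receptors, -0.06 for 9 ligands and -0.15 for 6 secreted inhibitors. The median of the intracellular inhibitors depends on the probe taken for Nkd1, whose 2 probes gave 0.76 and 0.07, and would be lower with the second. At an unadjusted p under 0.05 there were 13 of 38 Wnt genes (34.2%), against 12.5% of all features. In 18 of the 38 (47.4%) the ratio had the same sign on all 4 arrays, against 15.1% of all features. These shares only describe the set, since its members were chosen with earlier results of these data known. In the plot of the ratio of each Wnt gene on each array, all 4 intracellular inhibitors lie to the right of 0, and the secreted inhibitors lie mostly to the left.

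**Figure D1:**
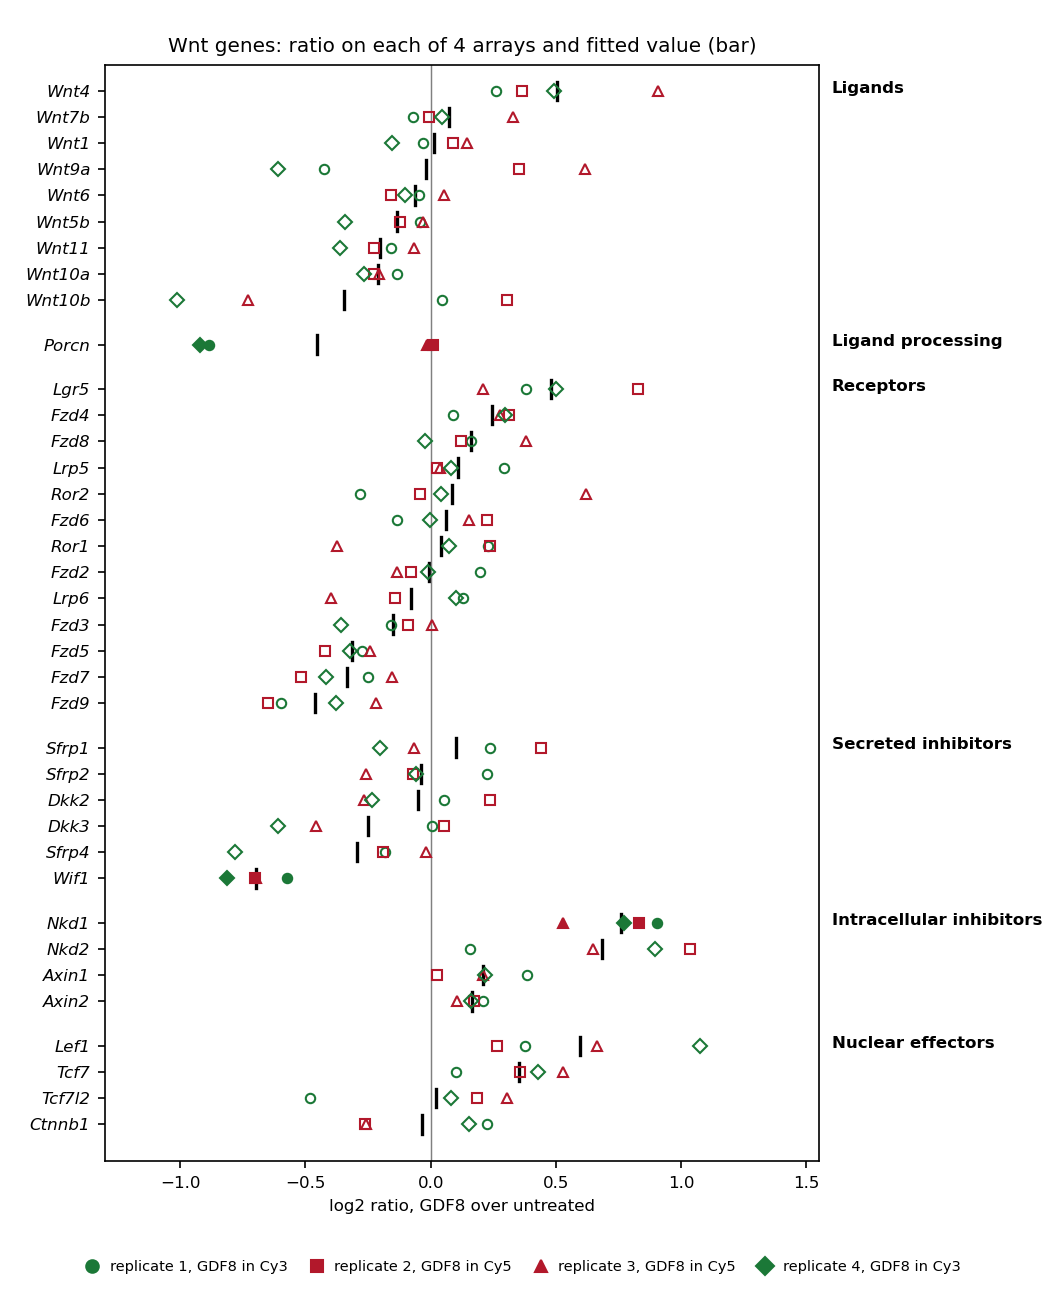
Log2 ratio of GDF8 over untreated cells for the measured Wnt genes, grouped by role, with 1 marker for each of 4 arrays and a black bar at the fitted value. Marker colour gives the dye of the GDF8 RNA, and filled markers show Nkd1, Wif1 and Porcn, the genes with an adjusted p under 0.05. Fzd1 is not drawn, since its probe was saturated in all 4 untreated channels.

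RefSeq promoter sequences (GRCm38.p6) matched 36 of the 53 genes. Those of Nkd1, Nkd2 and Wif1 are shown as the 250 bases before the start of the gene. Nkd1 and Wif1 passed the test, and Nkd2 is the near relative of Nkd1. Porcn, which also passed, had no promoter among these sequences. Nkd1 lies on the plus strand (chr8:88527383-88527632), Nkd2 on the minus strand (chr13:73847632-73847881) and Wif1 on the plus strand (chr10:121033754-121034003). Capitals mark the letters CTTTG, the core bound by Tcf and Lef factors, or CAGAC, a Smad half-site, each searched on both strands. The capitals in Nkd2 are GTCTG, 153 bases before the start, and those in Wif1 are CTTTG, 161 bases before it.
Nkd1: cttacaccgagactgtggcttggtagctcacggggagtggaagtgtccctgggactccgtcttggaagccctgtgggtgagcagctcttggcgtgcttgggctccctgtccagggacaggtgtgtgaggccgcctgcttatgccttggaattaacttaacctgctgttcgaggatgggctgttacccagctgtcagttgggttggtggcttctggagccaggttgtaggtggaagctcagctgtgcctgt
Nkd2: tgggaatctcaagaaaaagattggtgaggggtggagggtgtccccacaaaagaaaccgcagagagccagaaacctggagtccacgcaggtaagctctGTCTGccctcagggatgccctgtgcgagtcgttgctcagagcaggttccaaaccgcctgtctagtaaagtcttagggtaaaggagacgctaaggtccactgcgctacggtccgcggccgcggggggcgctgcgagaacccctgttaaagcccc
Wif1: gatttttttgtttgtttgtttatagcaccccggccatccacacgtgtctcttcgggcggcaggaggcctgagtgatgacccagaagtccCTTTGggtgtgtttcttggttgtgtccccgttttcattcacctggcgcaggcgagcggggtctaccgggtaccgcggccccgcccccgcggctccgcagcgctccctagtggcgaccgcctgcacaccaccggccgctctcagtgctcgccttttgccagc

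These short letters are common. CTTTG was present in 22 of 45 promoters of Wnt genes (48.9%) and in 48.6% of all 32851 promoters, and CAGAC in 37.8% and 42.2%. The longer form, in which CTTTG is followed by 2 letters that are each A or T, occurred in 13.3% of the Wnt gene promoters and 14.8% of all. The Smad palindrome GTCTAGAC occurred in 0 of the 45 and in 0.167% of all. A match describes letters in this window and no more, and the same holds for the window of Nkd1, which had none of these motifs.

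Of the 4 intracellular inhibitors, Nkd1 rose and 3 did not pass. Nkd1 and Nkd2 encode naked cuticle proteins, which bind Dishevelled. The log2 signal of Nkd1 in replicates 1 to 4 was 11.23, 11.70, 11.44 and 11.19 with GDF8 and 10.33, 10.87, 10.91 and 10.42 without. Every GDF8 value lay above every untreated value. How many of all features had groups without overlap was not counted, here and for the genes that follow. The ratios were 0.91, 0.83, 0.53 and 0.77, and the fitted value was 0.76 ± 0.10 (adjusted p = 0.015, 95% interval 0.53 to 0.99). In bulk RNA, fewer cells of a type and less RNA per cell cannot be told apart, here and for every gene that follows. A second Nkd1 probe, well above background in 3 of 4 GDF8 and 4 of 4 untreated channels, gave 0.07 ± 0.09, with ratios of 0.01, 0.14, 0.05 and 0.07. With both probes averaged, a choice made after the data were seen, Nkd1 gave 0.41 and did not pass (adjusted p = 0.059). Its call was also lost with replicate 2 left out (0.68, adjusted p = 0.088), with replicate 4 left out (0.79, adjusted p = 0.055), or without the pairing of the 2 RNAs on an array (adjusted p = 0.098).

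Nkd2 gave a ratio of similar size that varied more between arrays. Its log2 signal was 15.06, 15.26, 15.18 and 14.92 with GDF8 and 14.90, 14.23, 14.53 and 14.02 without. The lowest GDF8 value (14.92) and the highest untreated value (14.90) were nearly equal. Replicate 1 gave 0.16 and the other arrays 0.65 to 1.04. The fitted value of 0.68 ± 0.14 (1.61-fold) did not pass (adjusted p = 0.067), and the second Nkd2 probe gave 0.55 ± 0.11. Without replicate 1 the value was 0.87 and passed (adjusted p = 0.032). Nkd2 also passed with its probes averaged (0.62, adjusted p = 0.047) and with arrays centred on the median in place of loess (0.62, adjusted p = 0.021).

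The axins, scaffolds of the beta-catenin destruction complex, had smaller ratios. Axin2, a common readout of beta-catenin activity, gave 0.21, 0.17, 0.11 and 0.16 in replicates 1 to 4. Its fitted value was 0.16 ± 0.09 (adjusted p = 0.58), and the 95% interval of -0.04 to 0.37 contains 0 and values up to about the size of the ratio of Tcf7. Axin1 gave 0.21 ± 0.09 (adjusted p = 0.44). Both axins were above 0 on all 4 arrays.

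**Figure D2:**
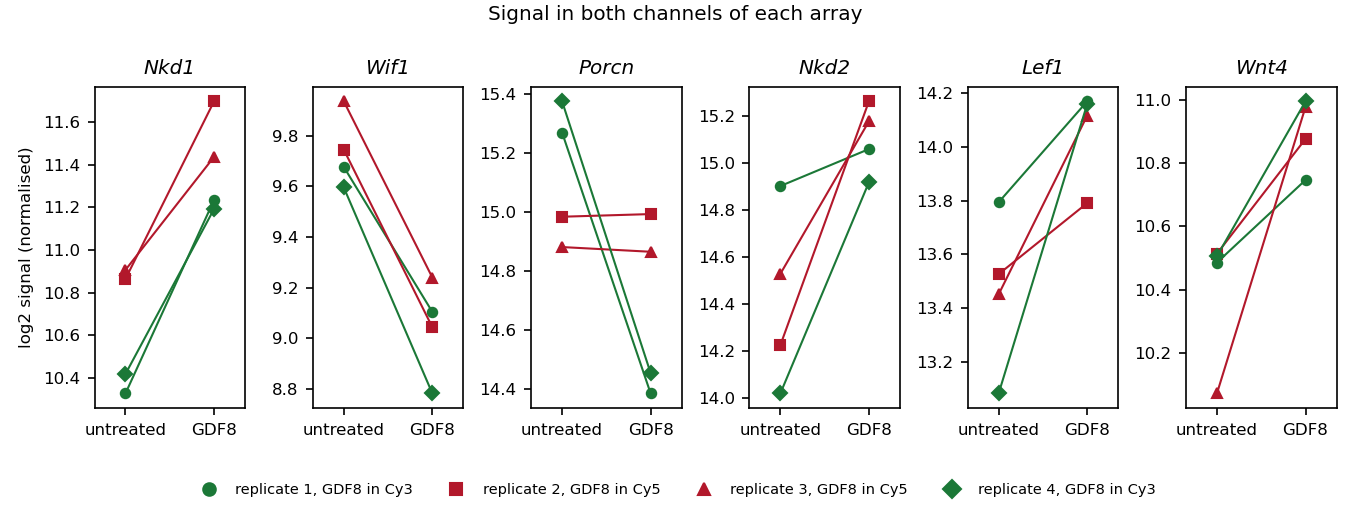
Normalised log2 signal of 6 Wnt genes in the untreated and the GDF8 channel of each array, joined by a line for each of 4 arrays and coloured by the dye of the GDF8 RNA. The vertical axis differs between panels and does not start at 0. All lines of Nkd1, Nkd2, Lef1 and Wnt4 go up and those of Wif1 go down, whereas Porcn goes down only on the 2 arrays with GDF8 in Cy3 and is level on the other 2.

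Of 6 secreted inhibitors measured, Wif1 fell and 5 did not pass. The log2 signal of Wif1 in replicates 1 to 4 was 9.10, 9.04, 9.24 and 8.78 with GDF8 and 9.68, 9.75, 9.94 and 9.60 without. Every GDF8 value lay below every untreated value, and all 8 channels were well above background. Ratios of -0.57, -0.70, -0.70 and -0.81 gave a fitted value of -0.70 ± 0.09 (adjusted p = 0.016, 95% interval -0.92 to -0.48). The fall was nearly equal in both dye orientations, with means of -0.70 for GDF8 in Cy5 and -0.69 in Cy3. Without replicates 2, 3 or 4 the value stayed between -0.70 and -0.64 and did not pass (adjusted p from 0.052 to 0.091).

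The other secreted inhibitors bind Wnt ligands (Sfrp) or, in the case of Dkk1, Dkk2 and Dkk4, the Lrp co-receptors. Sfrp4 gave -0.29 ± 0.12 (adjusted p = 0.39), with -0.78 in replicate 4 and -0.19 to -0.02 on the other arrays. Dkk3, a divergent member of the Dickkopf family, gave -0.25 ± 0.14 (adjusted p = 0.61), with 0.00 and 0.05 in replicates 1 and 2 and -0.46 and -0.61 in replicates 3 and 4. Sfrp1 (0.10 ± 0.13) and Dkk2 (-0.05 ± 0.12) were likewise above 0 in replicates 1 and 2 and below 0 in replicates 3 and 4. Sfrp2 gave -0.04 ± 0.10 with 3 GDF8 and 3 untreated channels saturated. Dkk1, Dkk4, Frzb and Sfrp5 were not measured, with at most 4 of 8 channels well above background.

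Porcn, the only member that acts in ligand processing, was 1.37-fold lower in the fit (-0.45 ± 0.09, adjusted p = 0.047). Its log2 signal in replicates 1 to 4 was 14.38, 14.99, 14.87 and 14.45 with GDF8 and 15.27, 14.98, 14.88 and 15.38 without, and the groups overlapped. The ratio was -0.89 and -0.92 on the arrays with GDF8 in Cy3 and 0.01 and -0.02 on those with GDF8 in Cy5. The dye term of the fit took up 0.45 of this probe's log2 ratio. Without that term Porcn did not pass (adjusted p = 0.52), nor with any single replicate left out (adjusted p from 0.098 to 0.26). It passed under 6 of 18 alternative settings, and it has 1 probe.

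Wnt9a had the other large dye term among Wnt genes (0.50) and was singled out after its values were seen. Its ratios were -0.43 and -0.61 with GDF8 in Cy3 and 0.35 and 0.62 with GDF8 in Cy5, which the fit set at -0.02 ± 0.10, with 2 GDF8 channels and 1 untreated channel saturated. By these probes the size of the ratio of Porcn and Wnt9a thus moved with the dye. A second Wnt9a probe, with 0 channels saturated, gave -0.13 ± 0.16. Its ratios were 0.22 and -0.75 with GDF8 in Cy3 and -0.04 and 0.05 with GDF8 in Cy5. With 2 arrays in each orientation, the design makes the fitted ratio the same with and without the dye term (-0.45 for Porcn). An additive dye effect would cancel in this mean, but whether the effect was additive was not tested. The plot of the 2 dye orientations against each other shows both genes far from the diagonal, with Wif1 and Fzd9 close to it.

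**Figure D3:**
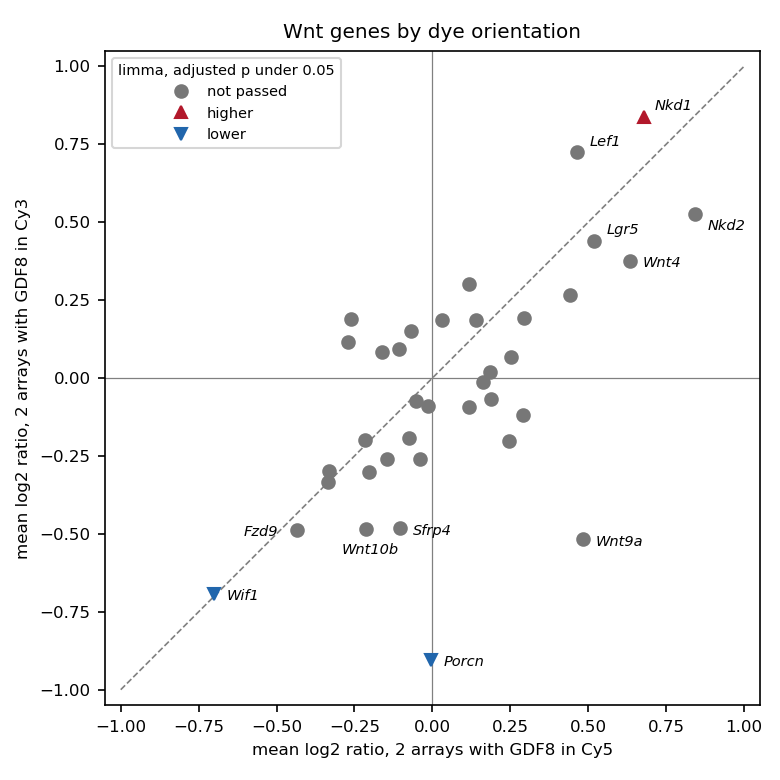
Mean log2 ratio of GDF8 over untreated for each Wnt gene on the 2 arrays with GDF8 in Cy5 (horizontal) against the 2 arrays with GDF8 in Cy3 (vertical). The dashed line marks equal ratios. Wif1 (-0.70 and -0.69) lies on it, Nkd1 (0.68 and 0.84) lies near it, and Porcn (0.00 and -0.90) and Wnt9a (0.48 and -0.52) lie away from it. Fzd1 is not drawn.

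Of the 19 ligand genes 9 were measured, and 0 of these passed in limma. Of the 9, 1 had an unadjusted p under 0.05, against 12.5% of all features. That gene was Wnt4, a ligand that acts in kidney, gonad and muscle development. Its log2 signal was 10.75, 10.88, 10.98 and 11.00 with GDF8 and 10.49, 10.51, 10.07 and 10.51 without, and the groups did not overlap. The ratio was 0.91 in replicate 3 and 0.26 to 0.49 on the other arrays, and the fitted value was 0.51 ± 0.12 (1.42-fold, adjusted p = 0.095).

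Wnt10b, a ligand known to hold back fat cell formation, split the arrays. Its ratios were 0.04 and 0.31 in replicates 1 and 2 and -0.73 and -1.01 in replicates 3 and 4, for a fitted value of -0.35 ± 0.22 (adjusted p = 0.70). Both pairs of arrays hold both dye orientations. Its untreated signals lay between 11.40 and 11.54, and its GDF8 signals ranged from 10.41 to 11.71.

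Wnt10a (-0.21 ± 0.09, adjusted p = 0.41, with 2 GDF8 and 2 untreated channels saturated), Wnt11, a ligand of the beta-catenin-independent branch (-0.20 ± 0.09, adjusted p = 0.46), and Wnt5b (-0.13 ± 0.10, adjusted p = 0.77) were below 0 on all 4 arrays. A second Wnt5b probe gave 0.07, so its sign depended on the probe. Wnt1, Wnt6, Wnt7b and Wnt9a lay between -0.06 and 0.07 by the brightest probe of each. The 95% interval of Wnt1 ran from -0.20 to 0.22, and it was well above background in 3 of 4 GDF8 channels. Wnt2, Wnt2b, Wnt3, Wnt3a, Wnt5a, Wnt7a, Wnt8a, Wnt8b, Wnt9b and Wnt16 were not measured. Of these, Wnt2, Wnt2b, Wnt3, Wnt3a and Wnt16 were well above background in 0 of 8 channels, and Wnt9b in 6 of 8.

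Of 15 receptor genes 14 were measured and 0 passed in limma, where 3.16% of all features did. Of the 14, 5 had an unadjusted p under 0.05, against 12.5% of all features. Fzd9, a frizzled receptor, had log2 signals of 12.31, 12.26, 12.40 and 12.50 with GDF8 and 12.91, 12.91, 12.61 and 12.87 without. Its groups did not overlap, and its ratio of -0.46 ± 0.11 (1.38-fold) had an adjusted p of 0.098. Fzd5 (-0.32 ± 0.09, adjusted p = 0.17) and Fzd7 (-0.33 ± 0.10, adjusted p = 0.20), the frizzled that satellite cells are known to use for Wnt7a, were also below 0 on all 4 arrays. Their second probes gave -0.11 and 0.03, so the sign of Fzd7 depended on the probe.

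Lgr5, a receptor for R-spondins and a stem cell marker in gut, gave 0.38, 0.83, 0.21 and 0.50 in replicates 1 to 4. Its fitted value was 0.48 ± 0.12 (adjusted p = 0.12), and its GDF8 signals of 10.41 to 11.38 overlapped the untreated signals of 9.90 to 11.17. A second Lgr5 probe, well above background in 0 of 4 GDF8 and 0 of 4 untreated channels, was not measured. Fzd4 gave 0.24 ± 0.09 (adjusted p = 0.32), with 0.09 in replicate 1 and 0.28 to 0.31 on the other arrays. The co-receptors Lrp5 (0.11 ± 0.09, 95% interval -0.11 to 0.33) and Lrp6 (-0.08 ± 0.09, -0.30 to 0.15) had intervals that contain 0. Both intervals exclude 0.76, the value of the brightest Nkd1 probe, but not 0.07, that of its second probe. Fzd3, Fzd6 and Fzd8 and the Wnt5a receptors Ror1 and Ror2 lay between -0.15 and 0.16. Fzd2 gave -0.01 by its brightest probe, saturated in 4 of 8 channels, and 0.10 by an unsaturated one. For Fzd1 no ratio is given because of saturation, and Fzd10 was well above background in 0 of 8 channels.

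Of the 4 nuclear effectors 0 passed in limma, where 2, Lef1 and Tcf7, had an unadjusted p under 0.05, against 12.5% of all features. Lef1 encodes a DNA-binding partner of beta-catenin and is itself a known Wnt target. Its log2 signal was 14.17, 13.79, 14.12 and 14.16 with GDF8 and 13.79, 13.53, 13.45 and 13.08 without. The lowest GDF8 value and the highest untreated value were nearly equal. Ratios of 0.38, 0.26, 0.66 and 1.07 gave 0.59 ± 0.14 (1.51-fold, adjusted p = 0.098), and a second probe gave 0.44 ± 0.10. Lef1 passed without replicate 1 (0.77, adjusted p = 0.043) and with median centring (0.60, adjusted p = 0.031).

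Tcf7, the gene of TCF1, gave 0.10, 0.36, 0.53 and 0.43, with a fitted value of 0.35 ± 0.10 (adjusted p = 0.17) and 0.43 ± 0.10 by its second probe. Tcf7l2 gave 0.02 ± 0.12, and its 4 probes lay between 0.00 and 0.12. Ctnnb1, beta-catenin, gave -0.04 ± 0.09 with 3 GDF8 and 3 untreated channels saturated, and its unsaturated probe gave 0.07 ± 0.13. The transcript says nothing of the level of beta-catenin protein.

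**Figure D4:**
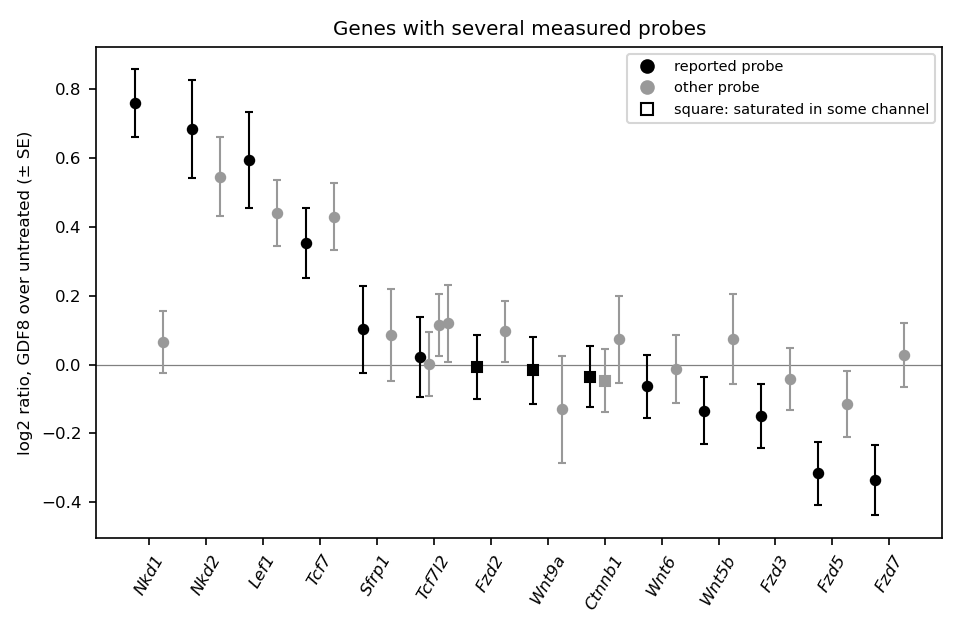
Log2 ratio of GDF8 over untreated with limma's standard error for the 14 Wnt genes that had several measured probes, with the reported (brightest) probe in black and other probes in grey. Squares mark probes saturated in at least 1 channel. The probes of Nkd2, Lef1 and Tcf7 lie close to each other, whereas those of Nkd1 lie at 0.76 and 0.07.

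Among 101 other genes of the pathway, 91 were measured, 1 was higher and 0 were lower, with a median of 0.04, where 0.860% of all features were higher and 2.30% lower. The gene that rose was Rspo1, a secreted R-spondin that strengthens Wnt signals through Lgr receptors. Its ratios were 0.84, 0.47, 0.16 and 0.80, and the fitted value was 0.57 ± 0.10 (1.48-fold, adjusted p = 0.033). The call was lost with any single replicate left out (0.49 to 0.65, adjusted p from 0.062 to 0.22), without the dye term (adjusted p = 0.12) and without the pairing by array (adjusted p = 0.18).

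Other genes with the smallest p in each group did not pass. Musk, the muscle kinase of the neuromuscular junction, which has a frizzled-like domain, gave -0.43 ± 0.12, Lypd6 0.23 and Tmem198 -0.19. Of 30 cytoplasmic genes, Ccdc88c gave -0.42 ± 0.09 (adjusted p = 0.063). Dact1 and Dact2, which bind Dishevelled as Nkd1 does, gave 0.36 ± 0.09 and 0.41 ± 0.10, and the kinase Gsk3b gave 0.23 ± 0.09. Of 20 nuclear cofactors, Pygo1 gave 0.32 ± 0.09, Pygo2 0.17, Bcl9l 0.15 and Tle4, a corepressor, -0.27. In the polarity and calcium branches (25 measured), Celsr1, an atypical cadherin, gave 0.42 ± 0.09 (adjusted p = 0.074). Daam2, a formin, gave -0.40 ± 0.09 (adjusted p = 0.077), Prickle1 -0.28 and Plcb1 0.26. Prickle1, saturated in 2 GDF8 and 2 untreated channels, had means of -0.08 with GDF8 in Cy5 and -0.48 in Cy3. The ratios of Plcb1 were 0.51 and 0.50 with GDF8 in Cy3 and 0.03 and -0.01 with GDF8 in Cy5.

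Of 48 genes listed as Wnt targets in various tissues, 38 were measured, 2 were higher and 1 was lower, and the median was 0.09 with 28 above 0 (73.7%). Of all features 0.860% were higher, 2.30% were lower and 52.2% lay above 0. The 28 include Fn1, Irs1 and Snai2, saturated in all 4 channels of both groups, so their ratios are not given. Others above 0, such as Ccn4 and Cd44 (3 GDF8 and 3 untreated channels each), were saturated in part. Tnfrsf19, also called Troy, a member of the TNF receptor superfamily, was lower on all 4 arrays (3.27-fold, -1.71 ± 0.13, adjusted p = 0.0083). Edn1, endothelin, gave 0.62, 0.88, 0.66 and 0.70 and rose 1.64-fold (0.72 ± 0.09, adjusted p = 0.015), and Prox1, a homeobox factor, rose too (0.59 ± 0.11, adjusted p = 0.043). The call of Edn1 was lost when replicate 2 (adjusted p = 0.094) or 4 (0.060) was left out. Prox1 did not pass without replicates 1, 2 or 4 (adjusted p from 0.096 to 0.25). Without the pairing by array both calls were lost (adjusted p = 0.11 for Edn1 and 0.17 for Prox1). That of Prox1 was also lost with the deposited table (adjusted p = 0.065), no filter on dim probes (0.051) or no dye term (0.081). Fst, follistatin, which binds and blocks GDF8, gave -0.83 and -0.68 with GDF8 in Cy3 and 0.05 and 0.15 with GDF8 in Cy5, for a fitted value of -0.33 ± 0.09 (adjusted p = 0.15).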

How the data were processed

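Log ratios of GDF8 over untreated RNA from 4 two-colour Agilent arrays were analysed. The deposited scanner files come from Feature Extraction 9.1.1.1, per the file headers, with the intensity of each spot and its local background, and a red-over-green log10 ratio. The log2 ratios of the authors' deposited table equalled the processed signals turned to GDF8 over untreated within 0.001 in 100% of 40929 single-spot probes, with column medians of 0.14, -0.09, -0.11 and 0.09. No column lacked a sample (0). Other deposited columns are flags. Per the series' design text, the authors used GeneSpring GX 12, a filter on flags, an unpaired test and a 1.6-fold threshold.

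Mean signals were corrected by normexp (offset 50) and normalised by loess within each array in limma 3.58.1 (R 4.3.3), controls at weight 0, outlier spots left out and spots of a probe averaged. A probe entered if well above background in the RNA's own channel on all 4 arrays of one treatment, which 26577 probes and 55 of 78 Wnt probes did. The brightest probe stood for a gene. limma fitted GDF8 and a dye term, with Benjamini-Hochberg adjustment over 17444 features. The array pairs the 2 RNAs and is the block. No ratio of a single gene is given where a whole group was saturated, but such genes stayed in the counts and medians. The number of arrays limits the precision. The fit was tested on simulated data.

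Names came from RefSeq (GRCm38.p6), by accession for 24375 probes, by symbol for 6301 and by synonym for 2426, and 8072 kept the file's name. The members and lists were chosen with earlier results of these data known. Named genes are all members with an adjusted p under 0.05, up to 5 per role with the smallest p, those whose probes differ in sign or by over 0.3, and, of each other list, genes past the threshold and up to 4 with the smallest p. The remaining members are given so that all are accounted for. Alternatives covered background, normalisation, filter, dye term, pairing, probe choice, the methods' t-test, a fold threshold and each replicate.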

Additional observations from a re-analysis of the deposited data

Results flagged for a closer look

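Over 59 Wnt and listed genes, the 4 arrays were searched for a ratio far from the other 3. Only the frizzled receptor gene Fzd4 had one, in replicate 1, at 0.0879 against 0.276 to 0.314 on the other arrays. The gap was 0.831 of the whole range, next to a critical value of 0.829. Chance gives about 1 in 20 such groups.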

How the results depend on the processing

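Wif1 kept its direction in 18 alternatives and passed in 14, Nkd1 in 13 and Porcn in 6. Over all 18, passed or not, Wif1 ran from -0.89 to -0.60, Nkd1 from 0.41 to 0.83 and Porcn from -0.54 to -0.44. No called value changed sign, 24 values of genes that did not pass did, and where a call was lost the cause was not tested. Against 1 Wnt gene higher and 2 lower, 1 was lower with offset 10, the deposited table, no filter on dim probes, no dye term or a 1.6-fold threshold, and 3 were higher and 1 lower with median centring. Without the replicate block (unpaired channels), 0 Wnt genes, 0 other pathway genes and 0 targets were higher, and 58 features were higher and 265 lower, against 150 and 402. The methods' t-test at its own threshold gave 2 Wnt genes higher and 1 lower and 69 features higher, and after Benjamini-Hochberg 0 and 0, with 24 features higher and 88 lower and 0 targets higher. All features higher numbered 79 with the deposited table, 66 without the dye term and 61 at 1.6-fold. There, and with the methods' t-test, 0 other pathway genes and at most 1 target were higher, and 1 target without a filter. Leaving out each replicate gave 0 to 3 Wnt genes higher and 0 to 1 lower, 0 other pathway genes and 0 to 2 targets higher, and 8 to 107 features higher and 76 to 322 lower, lowest without replicates 4 and 2. With 1 measured member probe for 24 of 38 Wnt genes, probe differences such as that of Nkd1 were not looked for there. Lrp6, among these, had a further measured probe filed under another name, which was not counted as a member. Saturation touched 6 Wnt genes.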
